A study of Mus musculus with 6 samples.

Results

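The genes described here code for the alcohol, aldehyde, flavin and steroid oxidoreductases of the mouse liver. They were taken by symbol from the table of raw counts as all genes of the Adh, Aldh, Fmo, Aox, Akr, Rdh, Hsd3b, Hsd11b and Hsd17b families. The rule found 79 of the 20140 listed genes, namely 6 Adh, 21 Aldh, 6 Fmo, 2 Aox, 15 Akr, 13 Rdh, 5 Hsd3b, 1 Hsd11b and 10 Hsd17b genes. Of these, 73 passed the filter on low counts and were tested among 16370 genes. The 6 that did not pass were Adh6-ps1, Aldh3a1, Aldh3b2, Aldh3b3, Fmo6 and Rdh19, which had at most 0.883 CPM (counts in 1000000 counts of the library, after TMM scaling) in any liver.

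Bulk polyA RNA was sequenced from 6 mouse livers collected on day 21, with 2 livers in each of 3 groups, which the labels call control (library name sham), intra-C and intra-S. CT26, the cell line given for the tumor groups, is a colorectal carcinoma line of BALB/c mice. The study describes BALB/c mice of 6–10 weeks whose cecum was implanted with CT26 cells, in which day 21 was taken as the premetastatic phase, mice whose spleen was injected with CT26 cells, which develop liver metastasis, and sham-operated mice that received PBS. The labels do not spell out intra-C and intra-S, so these names are kept here. Tumor site and stage change together between them, and the intra-S livers may hold tumor cells. The labels do not give the sex, and Xist was at 660.0 to 1091 CPM in every liver. The design text calls the livers biological replicates.

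These enzymes move electrons between NAD(P), flavin or molybdenum cofactors and small molecules. Alcohol dehydrogenases (Adh) and retinol dehydrogenases (Rdh) oxidize ethanol, retinol and steroid alcohols to aldehydes and ketones, and aldehyde dehydrogenases (Aldh) oxidize the aldehydes to acids, among them retinoic acid. Flavin-containing monooxygenases (Fmo) and aldehyde oxidases (Aox) oxidize drugs and dietary amines, aldo-keto reductases (Akr) reduce carbonyl groups, and the hydroxysteroid dehydrogenases (Hsd) activate or inactivate steroids. Hepatocytes are the main site of most of them. In bulk tissue, fewer hepatocytes and less of a transcript in each hepatocyte cannot be told apart.

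The libraries held 32838321 to 43368309 counts, so that 3 counts, the limit that a count of 0 allows, stood for 0.0679 to 0.0928 CPM (counting error only). Both intra-S livers differed from each other more than the livers of the other groups did. The absolute log2 difference between the 2 livers exceeded 1 for 34 of the 73 tested members in the intra-S group (46.6%, against 26.8% of all tested genes), for 8 in the intra-C group and for 2 in the sham group. The test was edgeR's quasi-likelihood test in 1 fit over all 6 livers with Benjamini-Hochberg adjustment over all 16370 genes, and a gene was called at an adjusted p under 0.05. Each value below is given for liver 1 and then liver 2 of a group.

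The transcripts of the 79 members took a smaller share of the library in every intra-C and intra-S liver than in the sham livers. Their summed TPM (deposited values per gene length) amounted to 19648 and 18137 in sham, 9552 and 10453 in intra-C and 6197 and 8162 in intra-S. The group means were 0.529 and 0.380 times the sham mean. In the raw counts the members took 2.15% and 2.00% of a sham library, 1.01% and 1.12% of an intra-C library and 0.706% and 0.884% of an intra-S library. Every family had a lower summed TPM in each of the 4 livers of the tumor groups than in either sham liver. The ratio to sham ranged from 0.423 (Akr) to 0.674 (Hsd17b) in intra-C and from 0.259 (Aox) to 0.647 (Hsd17b) in intra-S. These sums are led by a few genes per family and were not tested.

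**Figure D1:**
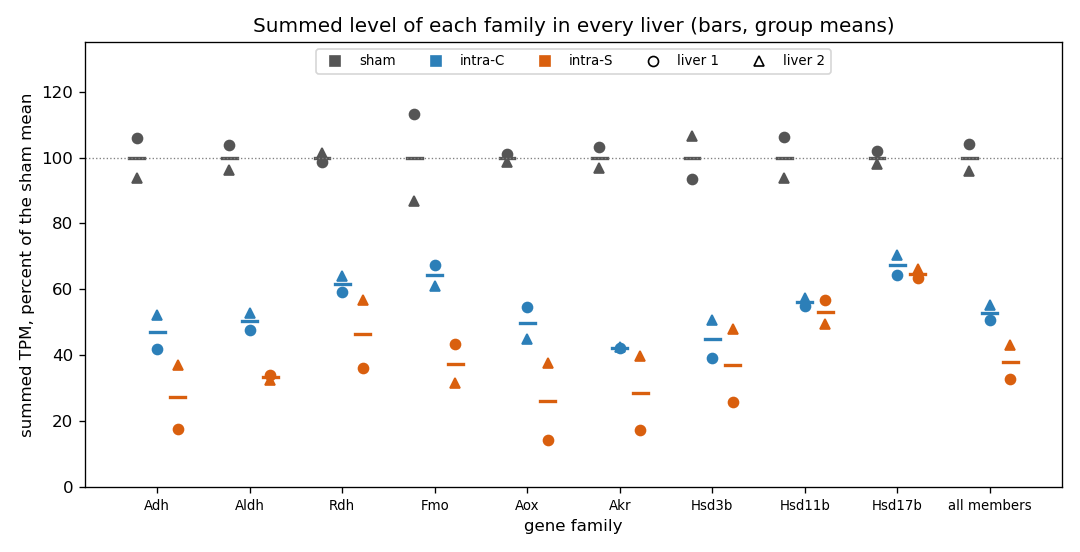
Summed deposited TPM of each family in every liver, as percent of the mean of the sham livers. Points are livers (circle, liver 1, and triangle, liver 2) and bars are group means. All intra-C and intra-S points lie below all sham points in each family, and intra-S liver 1 is the lowest for Adh, Rdh, Aox, Akr, Hsd3b and Hsd17b.

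Gene by gene, 10 members were called lower and 0 higher in intra-C than in sham livers, and 21 were called lower and 2 higher in intra-S than in sham livers. Over all tested genes, 2.38% were called lower and 4.92% higher in intra-C, and 3.95% lower and 6.78% higher in intra-S. The median log2 fold change of the tested members was −0.65 in intra-C and −0.89 in intra-S, against 0.01 and 0.04 over all tested genes. At an unadjusted p under 0.05, edgeR gave 26 lower and 5 higher members in intra-C and 41 lower and 9 higher in intra-S, beside 1935 lower and 2493 higher, and 2132 lower and 2817 higher, of all 16370 genes. DESeq2 called 20 members lower and 4 higher in intra-C (6.78% and 10.4% of all genes) and 38 lower and 7 higher in intra-S (8.95% and 12.6% of all genes). The sham libraries are shared by both comparisons. Of the members called lower, 9 were so in both, which is 90% of those in intra-C and 42.9% of those in intra-S. The same overlap was not counted over all tested genes, so these shares have no background to be read against.

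Many members are abundant in liver, and abundant genes as a class lay lower. Among the 35 members with a sham mean of at least 100 CPM, 7 were called lower in intra-C and 13 in intra-S, with median log2 fold changes of −0.92 and −1.18. Among all 1179 genes as abundant as that, 12% and 20.6% were called lower, with medians of −0.36 and −0.43. Both intra-C livers lay below both sham livers for 49 of the 73 tested members and above them for 11, while 34% and 34.4% of all tested genes did so. For intra-S the counts were 47 and 11, against 30% and 30.4% of all tested genes.

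The calls depended on which livers were in the fit. Without intra-S liver 1 or liver 2, 41 members were called lower in intra-C, when 12% of all genes were, and without either sham liver or either intra-C liver 0 members were, when at most 0.0227% of all genes were. For intra-S, 40 and 44 members were called lower without intra-S liver 1 and liver 2 (6.93% and 15.4% of all genes), 5 without either intra-C liver (0.954% and 0.817% of all genes) and 0 without either sham liver (0% of all genes). The sign of every one of these called members was kept when any single liver was left out.

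**Figure D2:**
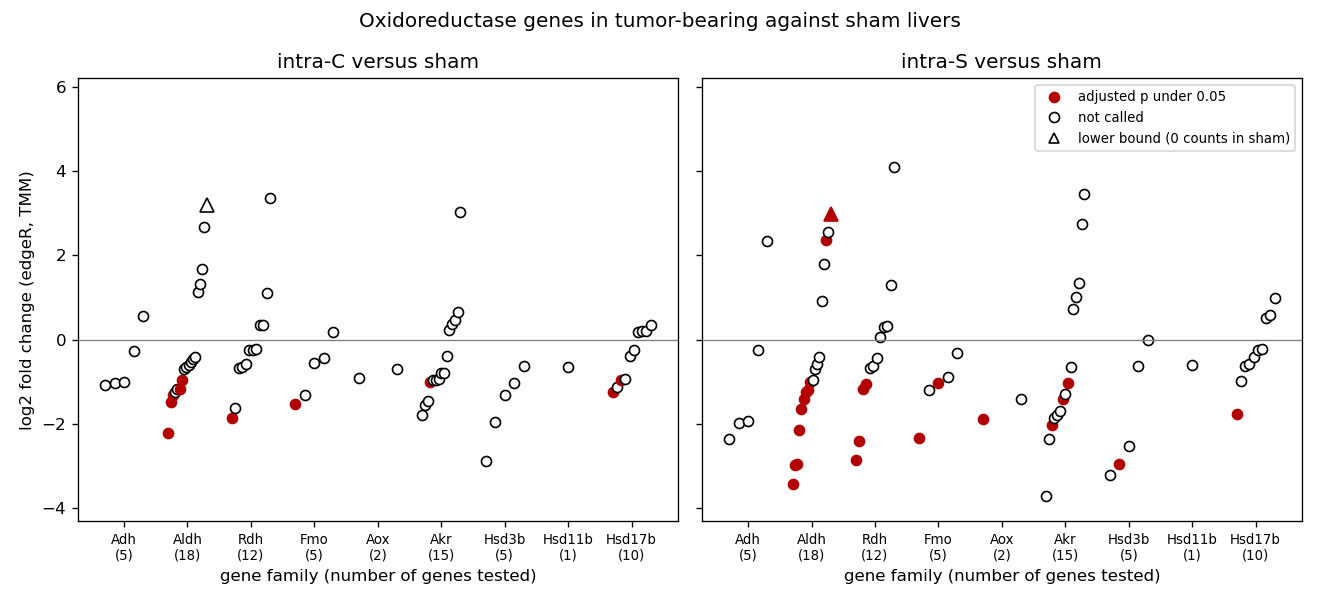
Fitted log2 fold changes of the 73 tested members by family, intra-C against sham on the left and intra-S against sham on the right. Red points have an adjusted p under 0.05 (10 and 23 genes), open points do not, and the triangle is the lower bound for Aldh1a3, which had 0 counts in both sham livers.

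Alcohol dehydrogenases had the highest summed TPM of the 9 families in sham livers, and 0 of the 5 tested were called in either comparison (edgeR). At edgeR's unadjusted p under 0.05, 0 differed in intra-C, and 3 were lower and 1 (Adh6b) higher in intra-S. Over all 16370 genes these counts were 1935 lower and 2493 higher in intra-C, and 2132 and 2817 in intra-S. Adh1 (chr3:138277585-138290698, coordinates here and below from RefSeq GRCm38.p6), the main ethanol and retinol dehydrogenase of liver and the member with the highest TPM in sham livers (mean 4037 TPM), was at 2687 and 2344 CPM in sham, 1120.4 and 1360.1 in intra-C and 329 and 1003 CPM in intra-S livers. All tumor-group livers lay below both sham livers, and intra-S liver 2 had 3.05 times the level of liver 1. The log2 fold changes were −1.02 (SE 0.49, adjusted p = 0.238) and −1.92 (SE 0.50, adjusted p = 0.06). Its neighbors on chromosome 3, Adh4 and Adh7, which also oxidize retinol, likewise lay below both sham livers in all 4 tumor-group livers and were lowest in intra-S liver 1. Adh4 had 92.5 and 104 CPM in sham, 41.7 and 51.3 in intra-C and 5.28 and 33.3 in intra-S livers, and Adh7 had 26.3 and 22.8, 10.7 and 13.8, and 1.84 and 10.5 CPM. Adh5, the formaldehyde (S-hydroxymethylglutathione) dehydrogenase found in nearly all cells, also lay below both sham livers in all 4, but by less. It had 415 and 408 CPM in sham, 346 and 340.1 in intra-C and 382 and 307 CPM in intra-S livers. Its log2 fold changes were −0.26 in both comparisons (adjusted p = 0.459 and 0.446).

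Aldehyde dehydrogenases held the most calls of any family: 5 of 18 tested Aldh genes were called lower in intra-C, and 9 lower and 2 higher in intra-S. Aldh3a2 (chr11:61223417-61267528), which oxidizes long-chain fatty aldehydes, had the largest fold change among the called members in intra-C. It was at 440.2 and 447 CPM in sham, 82.7 and 109 in intra-C and 30.9 and 82.1 CPM in intra-S livers. It fell 4.62-fold in intra-C (log2 fold change −2.21, SE 0.46, adjusted p = 0.041) and 7.84-fold in intra-S (−2.97, SE 0.47, adjusted p = 0.0172, with −3.84 when intra-S liver 2 was left out and −2.43 without liver 1).

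Aldh2 (chr5:121566027-121593824), the mitochondrial enzyme that clears acetaldehyde, fell in both comparisons. It had 1216 and 1129.7 CPM in sham, 609 and 591 in intra-C and 525 and 498 CPM in intra-S livers. The livers of each group lay close together and the groups did not overlap. The log2 fold changes were −0.97 (SE 0.20, adjusted p = 0.0395) and −1.20 (SE 0.20, adjusted p = 0.0195).

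Aldh4a1, Aldh5a1 and Aldh9a1 fell in both comparisons as well. Aldh4a1, the second enzyme of proline breakdown, went from 367 and 376 CPM in sham to 159 and 171 in intra-C and 69.5 and 97.6 in intra-S livers, with log2 fold changes of −1.17 (SE 0.23, adjusted p = 0.037) and −2.15 (SE 0.24, adjusted p = 0.00757). Of its 100-base stretches, 32.2% also lie in another gene, Gm21969, so its counts are uncertain. Aldh5a1, the succinate semialdehyde dehydrogenase of GABA breakdown, went from 50.2 and 47.0 CPM to 18.5 and 20.6 and to 16.9 and 19.9 CPM, and its log2 fold changes were −1.32 (SE 0.19, adjusted p = 0.0177) and −1.40 (SE 0.19, adjusted p = 0.0132). Aldh9a1, which oxidizes the aminoaldehyde on the way to carnitine, went from 195 and 217 CPM to 71.8 and 77.2 and to 54.6 and 77.5 CPM (−1.47, SE 0.24, adjusted p = 0.0232, and −1.64, SE 0.24, adjusted p = 0.0146). For these 3 genes no tumor-group liver reached a sham liver.

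A further pair, Aldh6a1 of valine breakdown and Aldh7a1 of lysine breakdown, was called lower in intra-S and not in intra-C, and the comparison of intra-S with intra-C gave no call. Aldh6a1 had 456 and 454 CPM in sham, 288 and 294 in intra-C and 258 and 196 in intra-S livers (adjusted p = 0.122 and 0.0381). Aldh7a1 had 345 and 331 CPM in sham, 215 and 200.2 in intra-C and 145 and 140.5 in intra-S livers (adjusted p = 0.0744 and 0.0156). Aldh1l1, the folate enzyme with the highest TPM of the family in sham livers (mean 835 TPM), had 1282 and 1149.6 CPM in sham, 902 and 875 in intra-C and 773 and 471 in intra-S livers, and its log2 fold changes of −0.45 (SE 0.28, adjusted p = 0.349) and −0.97 (SE 0.28, adjusted p = 0.0773) were not called. Aldh1b1, Aldh8a1 and Aldh16a1 also lay below sham in all 4 livers, by −0.40 to −0.70 on the log2 scale, and were not called.

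Aldh1a1 and Aldh1a7, neighbors on chromosome 19, were with Aldh3a2 the 3 Aldh genes with the lowest fitted log2 fold changes in intra-S. Aldh1a1, the cytosolic retinal dehydrogenase, was at 565 and 390.0 CPM in sham, 156 and 249 in intra-C and 19.8 and 69.8 CPM in intra-S livers. Its paralog Aldh1a7 was at 174 and 148, 64.7 and 77.3, and 9.80 and 32.1 CPM. For both genes every intra-C liver lay between the sham and the intra-S livers. In intra-S, Aldh1a1 fell 10.7-fold (log2 fold change −3.41, SE 0.63, adjusted p = 0.0253) and Aldh1a7 7.67-fold (−2.94, SE 0.54, adjusted p = 0.0248). These values move with the liver used: without intra-S liver 1 they were −2.77 and −2.32, and without liver 2 they were −4.59 and −4.04. Their log2 fold changes in intra-C, −1.24 (SE 0.58) and −1.18 (SE 0.51), were not called (adjusted p = 0.228 and 0.196).

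The promoters of this pair are shown because both genes fell in intra-S. They are the 250 bases before the RefSeq start site (GRCm38.p6), read along each gene's own strand, of Aldh1a1 at chr19:20601718-20601967 (plus strand) and of Aldh1a7 at chr19:20727557-20727806 (minus strand), with the longest run of bases that both share in capitals.
Aldh1a1: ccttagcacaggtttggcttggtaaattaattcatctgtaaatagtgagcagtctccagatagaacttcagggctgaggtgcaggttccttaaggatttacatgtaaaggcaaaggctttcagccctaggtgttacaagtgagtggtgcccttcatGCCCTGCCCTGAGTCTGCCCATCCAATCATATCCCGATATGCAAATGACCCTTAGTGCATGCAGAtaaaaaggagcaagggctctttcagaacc
Aldh1a7: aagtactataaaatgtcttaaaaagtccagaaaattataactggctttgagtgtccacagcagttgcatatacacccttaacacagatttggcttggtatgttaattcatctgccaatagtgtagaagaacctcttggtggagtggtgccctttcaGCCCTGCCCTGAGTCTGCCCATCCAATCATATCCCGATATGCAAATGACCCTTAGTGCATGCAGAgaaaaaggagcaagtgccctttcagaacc
The shared run is 65 bases long and begins at position −94 from the start site in both, and 94 of the last 100 bases are identical. RefSeq lists a second Aldh1a1 start farther upstream, which is not shown. The transcripts themselves differ enough to be counted apart: 0.0443% of the 100-base stretches of the longest Aldh1a1 transcript and 0.0508% of those of Aldh1a7 also lie in a transcript of another gene.

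**Figure D3:**
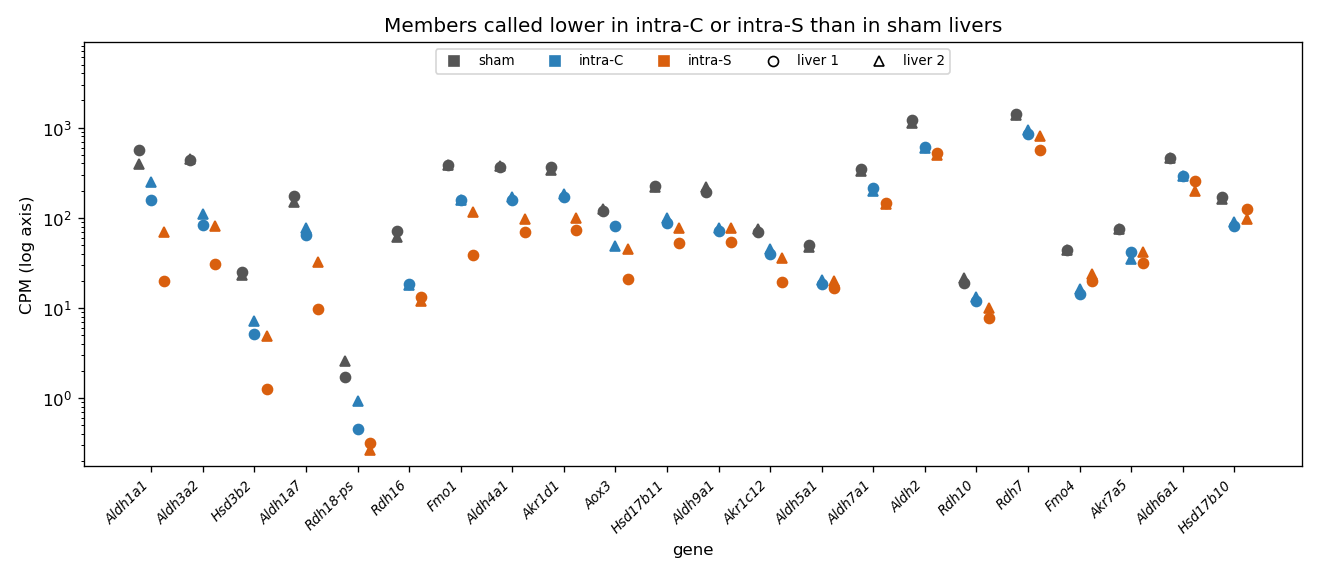
CPM in every liver (log axis) of the 22 members called lower in intra-C or intra-S, ordered by their fold change in intra-S. Circles are liver 1 and triangles liver 2. For Aldh1a1 and Aldh1a7 both intra-S points lie below both intra-C points, whereas for Aldh5a1, Aldh2 and Akr7a5 the points of both tumor groups lie close together.

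Among the retinol dehydrogenases, neighbors on chromosome 10 differed. Rdh16 (chr10:127801090-127815846), which oxidizes retinol and androgens, had the smallest adjusted p of all members. It was at 70.6 and 61.7 CPM in sham, 18.2 and 18 in intra-C and 13.2 and 11.9 CPM in intra-S livers, and it fell 3.65-fold (log2 fold change −1.87, SE 0.19, adjusted p = 0.00738) and 5.26-fold (−2.39, SE 0.19, adjusted p = 0.00469). Rdh16f2, its namesake nearby, had 22 and 34.8 CPM in sham, 68.1 and 54.1 in intra-C and 39.1 and 99.6 CPM in intra-S livers. All 4 tumor-group livers thus lay above both sham livers, but its log2 fold changes of 1.11 (SE 0.46) and 1.29 (SE 0.46) were not called (adjusted p = 0.185 and 0.123).

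The fold changes of the other abundant neighbors lay between these. Rdh7, the most abundant Rdh transcript (mean 1978 TPM in sham livers), had 1433 and 1397 CPM in sham, 849.5 and 947 in intra-C and 564 and 812 in intra-S livers, with log2 fold changes of −0.66 (SE 0.25, adjusted p = 0.153) and −1.04 (SE 0.25, adjusted p = 0.0477). Rdh9 had 242 and 336 CPM in sham, 279 and 211 in intra-C and 185 and 242 in intra-S livers, and the sham and intra-C livers overlapped. Rdh5, the 11-cis-retinol dehydrogenase best known from the retina, had 23.3 and 21, 30.2 and 26.4, and 12.8 and 33.7 CPM and was not called. Rdh18-ps was called lower in intra-S (1.72 and 2.56 CPM in sham, 0.321 and 0.270 in intra-S livers, adjusted p = 0.0344), but 44.7% of its 100-base stretches also lie in another gene, mainly Rdh16, so its counts are uncertain. The same share was 10.9% for Rdh16, 87.5% for Rdh9 (mainly with Rdh16f1) and 0% for Rdh16f2.

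The promoters of Rdh16 and Rdh16f2 are shown because Rdh16 fell in both comparisons and Rdh16f2 did not. They are the 250 bases before a RefSeq start site of each gene, both on the plus strand of chromosome 10. Their places are chr10:127800903-127801152 and chr10:127866226-127866475 (GRCm38.p6). The Rdh16 window ends inside the gene span given above, which begins at 127801090, so its start site lies downstream of that beginning. Capitals mark the matches to the motifs searched.
Rdh16: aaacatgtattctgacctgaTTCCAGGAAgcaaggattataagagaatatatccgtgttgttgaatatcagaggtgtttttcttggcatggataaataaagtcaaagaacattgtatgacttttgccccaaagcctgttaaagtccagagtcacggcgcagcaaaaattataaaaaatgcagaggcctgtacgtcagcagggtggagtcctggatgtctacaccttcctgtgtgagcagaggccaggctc
Rdh16f2: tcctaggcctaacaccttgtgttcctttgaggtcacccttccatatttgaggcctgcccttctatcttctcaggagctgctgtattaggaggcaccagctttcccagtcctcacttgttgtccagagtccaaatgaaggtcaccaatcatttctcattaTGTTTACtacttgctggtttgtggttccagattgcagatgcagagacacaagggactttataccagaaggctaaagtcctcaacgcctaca
The Rdh16 window held a match to the STAT motif at position −230, and the Rdh16f2 window a match to the FOXA motif at position −91. Each position is counted from the start site that follows the window. Their longest shared run was 10 bases, and 20 of the last 100 bases were identical without gaps.

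The 6 motifs searched on both strands, none of which contains another, were those of C/EBP (TTGCNNAA), STAT (TTCNNNGAA), HNF1 (GTTAAT), FOXA (TGTTTAC), HNF4 (CAAAGTCCA) and NRF2 (TGACNNNGC), factors known from liver or stress genes. RefSeq gave 68 windows of 250 bases for 60 members. C/EBP and STAT matches each occurred in 11.8% of these windows, against 9.56% and 7.02% of all 32851 promoter windows of the same length. FOXA matches occurred in 10.3% against 3.17%, NRF2 matches in 5.88% against 10.2%, HNF1 matches in 2.94% against 6.43% and HNF4 matches in 0% against 0.384%. The FOXA share is 7 of 68 windows, among them those of the paralogs Akr1c12 and Akr1c13 and of Akr1b7 and Akr1b10. Windows of paralogs, and those of members with more than 1 window, are not independent. In the 20 windows of members called lower, the FOXA motif occurred in 5%, and in the 46 windows of tested members not called lower in 13%. These are matches of letters and not binding sites.

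**Figure D4:**
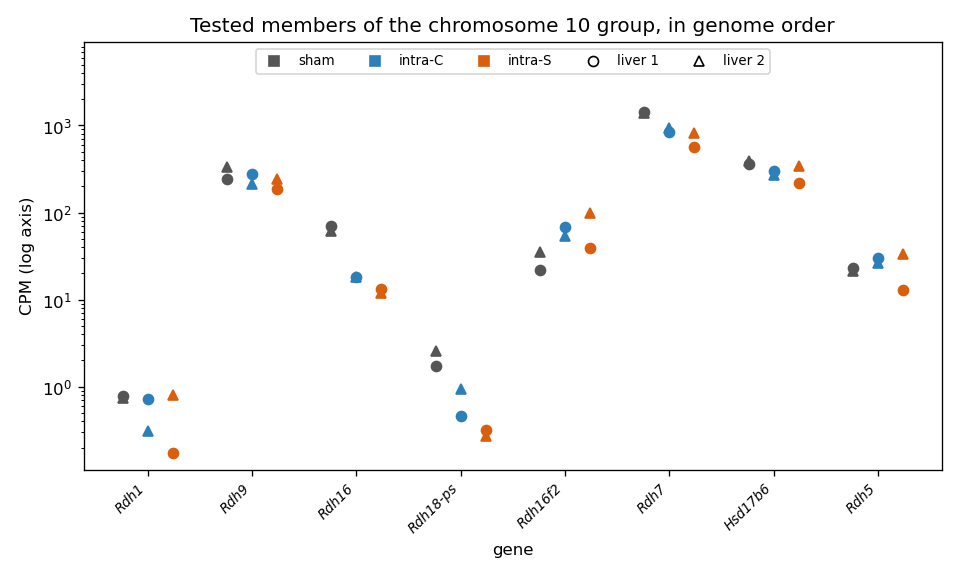
CPM in every liver (log axis) of the 8 tested members within the chromosome 10 group, in genome order. Circles are liver 1 and triangles liver 2. The tumor-group points of Rdh16 and Rdh18-ps lie below their sham points, and those of Rdh16f2 lie above its sham points.

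Outside chromosome 10, Rdh10, which makes the retinal used for retinoic acid in the embryo, had 18.8 and 21.4 CPM in sham, 12.01 and 13.1 in intra-C and 7.84 and 10.03 in intra-S livers, and it was called lower in intra-S (log2 fold change −1.17, SE 0.22, adjusted p = 0.0275). Rdh11, Rdh13 and Rdh14 had overlapping livers in at least 1 comparison and were not called.

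Of the flavin-containing monooxygenases, Fmo4 fell in both comparisons and Fmo1 in intra-S. Fmo4 had 44.3 CPM in both sham livers, 14.5 and 16.1 in intra-C and 19.7 and 23.6 in intra-S livers. It was 1 of 2 members called lower, with Hsd17b10, whose intra-C livers lay below the intra-S livers. Its log2 fold changes were −1.54 (SE 0.19, adjusted p = 0.0127) and −1.03 (SE 0.19, adjusted p = 0.0253). Fmo1, a drug-oxidizing enzyme next to it on chromosome 1, had 386 and 388 CPM in sham, 156 and 158 in intra-C and 38.7 and 116 in intra-S livers (−1.30, SE 0.47, adjusted p = 0.142, and −2.32, SE 0.49, adjusted p = 0.0348). Without intra-S liver 2, the latter value was −3.32, and without liver 1 it was −1.74.

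Fmo5, the family member that lies on chromosome 3, had 1012 and 634 CPM in sham, 840.0 and 1035 in intra-C and 889.6 and 424 in intra-S livers, and the groups overlapped in both comparisons.

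Both aldehyde oxidases, molybdenum enzymes that oxidize aldehydes and nitrogen heterocycles, lay below sham in all tumor-group livers. Aox3, the main liver form in mice, had 119.8 and 126 CPM in sham, 81.1 and 49.0 in intra-C and 21.22 and 44.95 in intra-S livers, and it was called lower in intra-S (log2 fold change −1.89, SE 0.41, adjusted p = 0.0381, with −2.53 when intra-S liver 2 was left out and −1.44 without liver 1) but not in intra-C (−0.92, SE 0.40, adjusted p = 0.203). Aox1 had 74.3 and 66.3, 43.5 and 43.8, and 13.6 and 39.1 CPM and was not called (adjusted p = 0.376 and 0.097).

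Among the 15 aldo-keto reductases, Akr1d1 fell in both comparisons and 2 more fell in intra-S. Akr1d1 (chr6:37529978-37574921), the 5-beta-reductase of bile acid and steroid hormone metabolism, had 368 and 343 CPM in sham, 171 and 182 in intra-C and 74.0 and 99.5 in intra-S livers. The 3 groups did not overlap. Its log2 fold changes were −1.01 (SE 0.22, adjusted p = 0.0468) and −2.03 (SE 0.23, adjusted p = 0.00782). Akr7a5, an aflatoxin and succinic semialdehyde reductase, had 75.6 and 74.5, 42.2 and 34.7, and 31.9 and 41.6 CPM (−0.97, adjusted p = 0.0506, and −1.03, adjusted p = 0.036). Akr1c12, one of the Akr1c genes on chromosome 13, had 70.3 and 75.4, 39.5 and 44.9, and 19.2 and 35.8 CPM and was called lower in intra-S (−1.40, SE 0.31, adjusted p = 0.0397), and 11.5% of its 100-base stretches also lie in other genes, mainly Akr1c13.

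The rest of the Akr1c genes, which reduce keto groups of steroids and prostaglandins, had no further call. Akr1c6, the most abundant of them (mean 1236 TPM in sham livers), was at 782 and 747 CPM in sham, 296 and 259 in intra-C and 31.9 and 268 in intra-S livers. Intra-S liver 2 was within the range of the intra-C livers, and liver 1 was 8.41 times lower than liver 2. The log2 fold changes were −1.46 (SE 0.83, adjusted p = 0.309) and −2.35 (SE 0.85, adjusted p = 0.125). Akr1c19 had 153 and 131, 40.7 and 41.6, and 2.16 and 19.7 CPM (adjusted p = 0.227 and 0.0503). Akr1c13, Akr1c14, Akr1c20 and the nearby Akr1e1 also lay below sham in all 4 livers, with log2 fold changes of −0.79 to −1.55 in intra-C and −1.29 to −1.86 in intra-S.

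The 4 Akr1b genes on chromosome 6, aldose reductase and its relatives, had no negative fitted log2 fold change, although that of Akr1b7 in both comparisons, of Akr1b10 in intra-C and of Akr1b3 in intra-S turned negative under at least 1 alternative. Akr1b3, aldose reductase itself, had 6.16 and 7.17 CPM in sham, 11.8 and 9.31 in intra-C and 5.71 and 16.4 in intra-S livers. Akr1b10 had 1.97 and 2.01, 2.49 and 2.20, and 3.41 and 4.66 CPM, and Akr1b8 had 2.34 and 1.18, 3.03 and 1.86, and 2.48 and 6.50 CPM. Akr1b7 had 6.82 and 6.25 CPM in sham, 14.0 and 2.85 in intra-C, and 84.3 CPM in intra-S liver 1 against 3.19 in liver 2. None of them was called, and the Akr1b7 value of intra-S rests on liver 1.

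The 3-beta-hydroxysteroid dehydrogenases, which act on delta-5 steroids and 3-keto steroids, all had negative log2 fold changes in intra-C. Hsd3b2 had 24.8 and 23.1 CPM in sham, 5.14 and 7.17 in intra-C and 1.25 and 4.88 in intra-S livers, and it was called lower in intra-S (log2 fold change −2.96, SE 0.60, adjusted p = 0.0315, with −4.25 when intra-S liver 2 was left out and −2.29 without liver 1) but not in intra-C (−1.96, SE 0.57, adjusted p = 0.09). Hsd3b5, a 3-keto-steroid reductase of mouse liver that is higher in males, had 32.0 and 50.3, 5.68 and 5.44, and 0.583 and 8.31 CPM. Hsd3b3 had 206 and 195, 77.3 and 84.3, and 8.60 and 61.1 CPM. Both lay below sham in every tumor-group liver, and neither was called (lowest adjusted p = 0.0893 for Hsd3b5 and 0.0912 for Hsd3b3, both in intra-S).

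Hsd3b1, the form of steroid-making tissues, had 9.65 and 10.2 CPM in sham, 4.35 and 5.38 in intra-C and 12.9 and 6.89 in intra-S livers. Hsd3b7, a different kind of enzyme that works early in bile acid synthesis and has the highest TPM of the family in sham livers (mean 293 TPM), had 217 and 259 CPM in sham, 136 and 173 in intra-C and 120.3 and 187 in intra-S livers. Its log2 fold changes were −0.62 (SE 0.28, adjusted p = 0.212) and −0.63 (SE 0.28, adjusted p = 0.187). Of the 100-base stretches of Hsd3b7, 90.1% also lie in another gene of GENCODE M21, mainly Gm49388, so its counts are uncertain.

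Hsd11b1, which makes active glucocorticoid from 11-keto steroids in liver, had 853 and 755 CPM in sham, 519 and 509 in intra-C and 579.6 and 473 in intra-S livers. The tumor-group livers overlapped each other and lay below both sham livers. The log2 fold changes were −0.65 (SE 0.21, adjusted p = 0.117) and −0.61 (SE 0.21, adjusted p = 0.116), with an unadjusted p under 0.05 in both comparisons. H6pd, the enzyme that supplies NADPH to Hsd11b1 within the endoplasmic reticulum, had 212 and 175 CPM in sham, 403 and 379 in intra-C and 171 and 194 in intra-S livers and was called higher in intra-C (log2 fold change 1.01, SE 0.21, adjusted p = 0.0403).

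Hsd17b genes split between mitochondria, peroxisomes, lipid droplets and endoplasmic reticulum, and their fold changes had both directions. Hsd17b11, a lipid droplet enzyme, had 225 and 219 CPM in sham, 87.1 and 99.9 in intra-C and 53.2 and 77.0 in intra-S livers, with log2 fold changes of −1.25 (SE 0.24, adjusted p = 0.0357) and −1.77 (SE 0.25, adjusted p = 0.0133). Its chromosome 5 neighbor Hsd17b13, also a lipid droplet enzyme, had 451 and 374 CPM in sham, 449.7 and 487 in intra-C and 703 and 484 in intra-S livers, with log2 fold changes of 0.18 (SE 0.25, adjusted p = 0.688) and 0.53 (SE 0.25, adjusted p = 0.221). Both intra-S livers thus lay above both sham livers for Hsd17b13 and below them for Hsd17b11.

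Hsd17b10, a mitochondrial enzyme of isoleucine breakdown and a subunit of RNase P, had 171 and 161 CPM in sham, 81.7 and 89.9 in intra-C and 125 and 96.1 in intra-S livers. It was called lower in intra-C just under the threshold (log2 fold change −0.95, SE 0.21, adjusted p = 0.0498) and was not called in intra-S (adjusted p = 0.128). Hsd17b6, the retinol dehydrogenase-like enzyme of chromosome 10 with the highest TPM of the Hsd17b family in sham livers (mean 513 TPM), had 358 and 392 CPM in sham, 302 and 269 in intra-C and 221 and 345 in intra-S livers (log2 fold changes −0.39, SE 0.26, adjusted p = 0.39, and −0.40, SE 0.26, adjusted p = 0.352). Hsd17b2, which inactivates estradiol and testosterone, had 116 and 106 CPM in sham, 56.6 and 46.4 in intra-C and 132 and 56.7 in intra-S livers. Hsd17b4 of peroxisomal fatty acid and bile acid oxidation had 312 and 299.5, 240.0 and 278, and 108 and 202 CPM, and Hsd17b12 of fatty acid elongation had 108 and 109, 138 and 139, and 62.2 and 124 CPM. None of these last 3 was called.

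The 2 members called higher, both in intra-S, are scarce in sham livers. Aldh3b1, which acts on membrane-derived aldehydes, had 0.542 and 0.905 CPM in sham, 1.88 and 2.75 in intra-C and 4.20 and 3.31 in intra-S livers, and it rose in intra-S (log2 fold change 2.37, SE 0.44, adjusted p = 0.0261, and adjusted p = 0.0711 in intra-C). Aldh1a3, a retinal dehydrogenase of epithelia, had 0 counts in both sham livers, 0.764 and 0.588 CPM in intra-C and 0.204 and 0.956 CPM in intra-S livers. The intra-C mean was at least 9.14-fold and the intra-S mean at least 7.85-fold higher than 3 counts in a sham library, with adjusted p = 0.0529 and 0.0474. The intra-S mean rests on liver 2, since liver 1 alone was at least 2.76-fold higher. Adh6b had 0.320 and 0.498 CPM in sham, 0.382 and 0.835 in intra-C and 2.19 and 1.99 in intra-S livers (adjusted p = 0.0546 in intra-S). Rdh12, Akr1c18, Aldh1l2 and Aldh18a1, each at 0.566 CPM or less in both sham livers, lay above sham in all 4 tumor-group livers and were not called. For Akr1c18 in intra-C liver 2 this rests on 4 counts, against 3 in each sham liver.

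Between the tumor groups no member was called. Of all tested genes 0% were called in edgeR's comparison of intra-S with intra-C, the lowest adjusted p of a member was 0.285, and 8 members were lower and 3 higher in intra-S at an unadjusted p under 0.05, as were 1049 and 1144 of all 16370 genes. DESeq2 called 4 members and 527 genes (3.72% of all). Both intra-S livers lay below both intra-C livers for 32 members and above them for 8, against 21.5% and 21.9% of all tested genes. Without intra-S liver 2, 33 members were called, as were 16.5% of all genes.

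Intra-S liver 1 was the lower liver of its group for most members. Of the 73 tested members, 50 were lower in liver 1 than in liver 2, 30 of them by more than 1 on the log2 scale, and 4 were higher by more than 1. The median difference was −0.64 for the members and −0.03 for all tested genes. By family, the median log2 difference from the sham mean was −4.20 in liver 1 and −1.72 in liver 2 for Hsd3b, −2.93 and −1.21 for Adh and −1.92 and −0.97 for Akr. For Aldh it was −0.99 in liver 1 and −1.22 in liver 2, and for Hsd11b1 −0.47 and −0.76. Hsd3b5 was 14.3 times, Akr1c19 9.12 times and Akr1c6 8.41 times lower in liver 1 than in liver 2, whereas the order was the opposite for Fmo5, Hsd17b2 and Aldh1l1.

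**Figure D5:**
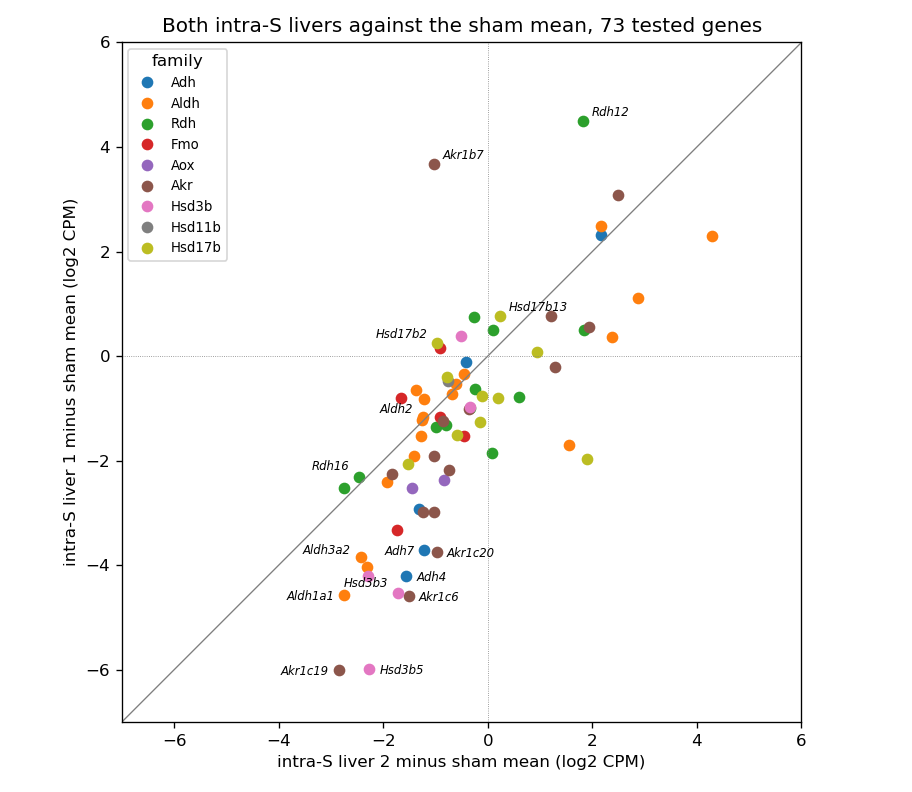
Log2 difference of each tested member from the sham mean in intra-S liver 2 (x axis) and liver 1 (y axis), coloured by family, with the diagonal of equal values. Adh4, Adh7, Akr1c6, Akr1c19, Akr1c20, Hsd3b3 and Hsd3b5 lie below the diagonal, Aldh2 and Rdh16 lie close to it, and Akr1b7 and Rdh12 lie above it.

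Further genes of the same pathways, outside the 9 families, were counted in the same way, beside the 2.38% lower and 4.92% higher of all tested genes in intra-C and the 3.95% lower and 6.78% higher in intra-S. Of 20 retinoid genes tested, 1 was called higher and 2 lower in intra-C, and 1 higher and 3 lower in intra-S. Dhrs3, which reduces retinal to retinol, had 94.6 and 106 CPM in sham, 33.9 and 43.2 in intra-C and 29.5 and 46.5 in intra-S livers (log2 fold changes −1.38 and −1.40, adjusted p = 0.0383 and 0.0307). The retinoid receptor gene Rxrg was called lower in both comparisons, and Retsat, the retinol saturase, in intra-S (adjusted p = 0.0557 in intra-C).

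Of 16 genes that handle aldehydes, peroxide and carbonyls, 3 were called lower in intra-C and 6 in intra-S, and 0 higher. Cat, catalase, which can also oxidize ethanol, had 2516 and 2252 CPM in sham, 697 and 796 in intra-C and 242 and 441 in intra-S livers (−1.68 and −2.80, adjusted p = 0.035 and 0.00912). Cyp2e1, the ethanol-inducible P450, was called lower in intra-S (−1.67, adjusted p = 0.0133) but not in intra-C (−0.93, adjusted p = 0.0626). Of 9 genes of the molybdenum cofactor and its enzymes, 0 were called in intra-C and 2 were called lower in intra-S, namely Gphn, which completes the cofactor, and Mtarc1. Of 17 steroid and bile acid enzymes, 1 (H6pd) was called higher in intra-C and 4 (Srd5a1, Cyp7b1, Slc27a5 and Baat) were called lower in intra-S. Of 12 NRF2 targets, 5 were called lower in intra-C and 6 lower and 1 higher (Hmox1) in intra-S. Median log2 fold changes of the lists in intra-C and intra-S were −0.45 and 0.01 for retinoid genes, −0.68 and −0.94 for aldehyde handling, −0.44 and −0.64 for molybdenum enzymes, −0.37 and −0.69 for steroid and bile acid enzymes and −0.48 and −0.89 for NRF2 targets, beside the 0.01 and 0.04 of all tested genes.

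Regulators and other hepatocyte programs were looked at against the same shares of all tested genes. Of 8 glucocorticoid-induced genes, 0 were called in intra-C and 2 (Fkbp5 and Sgk1) were called higher in intra-S. Their median log2 fold change was 1.37 in intra-C, with 8 of 8 above 0, and 0.98 in intra-S, with 6 of 8 above 0. Of 9 xenobiotic receptor and P450 genes, 3 were called lower in intra-C, among them Nr1i3, the receptor CAR, and 2 in intra-S. Of 15 hepatocyte transcription factors, Cebpa was called lower in intra-C, and in intra-S Ppara was called lower and Foxa3 higher. Of 4 tested male-biased liver genes, 0 were called in intra-C and 3 lower in intra-S, and of 10 female-biased genes 2 and 5 were called lower. Pericentral genes were called lower in 1 and 3 of 10 cases and periportal genes in 1 and 2 of 10. The median log2 fold changes in intra-C and intra-S were −0.67 and −0.71 for pericentral genes, with 8 of 10 below 0 in both. For periportal genes they were 0.13 and 0.32, with 6 of 10 above 0 in both.

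Marker genes of some other cell types differed between the groups. The summed CPM of 10 neutrophil markers was 3.77 and 4.98 in sham livers and 288 to 1077 in the 4 tumor-group livers, and all 10 were called higher in both comparisons. Macrophage and monocyte markers summed to 132 and 139 CPM in sham and 432 to 735 CPM in the tumor groups (6 of 8 called higher in both), and endothelial markers to 78.0 and 88.1 CPM against 185 to 232 CPM (3 of 5 called higher in both). Erythroid markers summed to 205 and 361 CPM in sham, 371 and 235 in intra-C and 1478 and 1069.9 in intra-S livers (0 of 4 called in intra-C and 4 higher in intra-S). Proliferation markers summed to 11.9 and 6.67, 23.5 and 31.7, and 70.2 and 58.6 CPM (1 of 4 called higher in intra-C and 4 in intra-S). Of the T and NK cell markers 0 of 5 tested and of the B cell markers 0 of 3 were called in either comparison, and the T and NK cell sums were 2.17 to 6.30 CPM over all livers. The B cell sums were 2.04 and 2.51 CPM in sham, 0.535 and 0.866 in intra-C and 1.11 and 2.04 in intra-S livers, and in intra-C 2 of the 3 B cell markers were lower at an unadjusted p under 0.05. Of the stellate cell and fibroblast markers 0 of 6 were called in intra-C and 1 higher in intra-S (sums of 44.0 to 121 CPM), and of the cholangiocyte or other epithelial markers 0 of 4 and 1 higher (1.48 to 4.51 CPM). The 13 hepatocyte markers listed, led by Alb, summed to 125304 and 121025 CPM in sham and 124723 to 207302 CPM in the tumor groups. Their sum was thus not lower in any tumor-group liver than in the lower sham liver. In intra-C, 1 of them was called higher and 0 lower, and in intra-S 2 higher and 1 lower. Their median log2 fold change was −0.27 in intra-C, with 7 of 13 below 0, and 0.13 in intra-S, with 5 of 13 below 0. The part of the other cell types in the results above was not tested.

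Some members share reads or position with other genes. Of the 79, 46 had no 100-base stretch in common with another gene's GENCODE transcripts, and 12 shared more than 10% of theirs. The span of 20 members overlaps another listed gene, and the sources used here do not say whether strand was used in counting. Some clusters of paralogs were also left out as a whole, whatever stretches their genes share, namely the Hsd3b, Akr1c, Adh6 and Aldh3b genes with Aldh1a1, Aldh1a7, Rdh1, Rdh9, Rdh16, Rdh16f2 and Rdh18-ps. The median log2 fold change of the remaining 52 tested members was −0.55 in intra-C and −0.67 in intra-S.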

How the data were processed

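Liver RNA of 6 mice, 2 each from the sham, intra-C and intra-S groups, was analyzed. Reads had been mapped by the authors with HISAT2 2.1.0 to the mm10 build. They counted uniquely aligned exon reads with featureCounts (Subread 2.0.6) and deposited raw counts and TPM values, which are counts scaled by gene length and library. The annotation and the use of strand are not given in the sources used here. From the deposited counts, edgeR 4.0.16 (R 4.3.3) gave TMM-scaled CPM and, after filterByExpr (count minimum 10), quasi-likelihood tests. Standard errors were derived from the F statistic. The deposited TPM was used for levels between genes. Counts per library and the precision they give are in the opening. Alternatives were DESeq2 1.42.0, limma 3.58.1 on log2(TPM + 1) and log2(TPM + 0.1), other filters and scalings, a robust spread, only the 2 groups compared, a replicate block and each liver left out. Figures used Python and matplotlib. Promoters came from RefSeq, and sharing of 100-base stretches was counted in GENCODE M21 transcripts.

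The families and all lists were chosen with earlier results of these data known. Full values were to be given for members called in either comparison with sham with at least 5 CPM, at most 12 per direction, and for the highest member of each family by TPM in sham livers. Other members were named after their values were seen. Some results are not reported here.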

Additional observations from a re-analysis of the deposited data

How the results depend on the processing

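No alternative reversed the sign of the members' median or of a called member's fold change against sham, but 11 of the 63 members not called in intra-C and 11 of the 50 not called in intra-S turned sign under at least 1. Akr1b7 went from 2.74 to −1.03 in intra-S without intra-S liver 1, Hsd17b2 from −0.24 to 0.24 without liver 2, Hsd3b1, at 0.00033 in intra-S, ranged from −0.52 to 0.39, and Hsd17b13 went from 0.18 to −0.07 in intra-C by library size without TMM. For the 31 genes that were called or named by the rule, of 989 values under an alternative, 728 kept their side of the threshold, 108 passed it newly and 153 no longer passed it. For members called lower in intra-C (10), DESeq2 called 20, the fit of only the 2 groups compared 42 (14.2% of all genes lower and 16.3% higher), and fits without 1 liver 0 to 41. For members called higher in intra-C (0), these gave 4, 5 and 0 to 6, and no filter on low counts gave 1. For members called lower in intra-S (21), they gave 38, 4 (0.734% of all genes) and 0 to 44. For members called higher in intra-S (2), they gave 7, 0 and 0 to 9, and library size without TMM and limma on log2(TPM + 0.1) gave 1 each. For intra-S against intra-C (0), DESeq2 called 4 members and fits without 1 liver 0 to 33. The cause was not tested. The median log2 fold change in intra-C (−0.65) was −0.91 by library size without TMM, −0.81 and −0.83 by limma on log2(TPM + 1) and log2(TPM + 0.1), −0.55 without the paralog clusters and −0.69 to −0.60 without 1 liver. That in intra-S (−0.89) was −1.28 by limma on log2(TPM + 0.1) and −1.20 to −0.73 without 1 liver. Library size without TMM moved the median of all genes to −0.25 in intra-C and −0.23 in intra-S, and the share of all genes called lower to 4.89% against 3.48% higher in intra-C and 6.82% against 5.12% in intra-S. By limma on log2(TPM + 1) these medians, 0.01 and 0.04 in edgeR's fit, were −0.10 and −0.15, and the shares were 5.47% and 3.04%, and 9.49% and 4.18%. By limma on log2(TPM + 0.1) the medians were −0.17 and −0.26.

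Hsd17b10 lost its call in intra-C without the filter (adjusted p = 0.0539) and with TMM computed without the 100 most abundant genes (0.0503). Aldh1a3 lost its call in intra-S under library size without TMM (0.0518) and both limma fits (0.162 and 0.0814). In the fit of only the 2 groups compared, Aldh3a2, Fmo4, Aldh9a1, Hsd17b11, Aldh2, Aldh1a1, Hsd3b2, Aldh1a7, Fmo1, Aox3, Akr1c12, Rdh7, Akr7a5, Aldh3b1, Aldh6a1, Aldh7a1, Rdh10 and Rdh18-ps lost their calls in intra-S (adjusted p = 0.0507 to 0.114), and Aldh1a3 did not pass its filter. Replicate numbers only name the livers, since the deviations of same-numbered livers correlated by 0.04, −0.03 and 0.08 between groups. With the replicate block, 7 members were called lower in intra-C and 20 in intra-S (1.58% and 3.38% of all genes), 1 was called higher in intra-S (5.83% of all genes), and 0 were called between intra-S and intra-C. Under the block, Akr1d1, Aldh2 and Hsd17b10 lost their calls in intra-C (adjusted p = 0.0666, 0.0617 and 0.0735), and Aox3, Rdh7, Akr7a5, Aldh6a1 and Aldh1a3 theirs in intra-S (0.0506, 0.0549, 0.0555, 0.0534 and 0.0703). Members with fewer than 3 counts in a group cannot be told from 0 at this depth.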
